A study of Mus musculus with 7 samples.

Results

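The 10 genes described here, called the members, encode proteins of the milk fat globule and proteins with which milk carries defence against infection. They were Btn1a1, Xdh, Plin2 and Mfge8 of the globule, the milk lipase gene Cel, and Ltf, Lpo, Trf, Pigr and Spp1 of the soluble fraction. Each member was taken by its symbol from the deposited expression table of 56440 gene models, and each symbol matched 1 row. RNA was measured by sequencing in basal cells sorted by flow cytometry from fresh mouse mammary glands on day 2 of lactation. There were 3 a3a6KO libraries, titled as double knockouts and Blg positive, and 4 Ctrl libraries, titled Blg negative, named as biological replicates by the submitters. The names α3 and α6 stand for integrin subunits of laminin receptors. In mammary mouse models Blg usually names a Cre transgene under the beta-lactoglobulin promoter, which is active in luminal secretory cells. The labels do not spell the name out. The sources used here do not give strain, age, further alleles of either group or how many mice a library pools. All mutants and no controls were Blg positive, so an effect of the transgene and one of integrin loss cannot be told apart.

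Milk fat leaves the luminal secretory cell as a lipid droplet wrapped in the apical plasma membrane. Perilipin 2 coats the droplet in the cell, and butyrophilin of the apical membrane together with xanthine oxidoreductase links the droplet to the membrane that envelops it. Lactadherin, the product of Mfge8, sits on the outer face of the globule. The soluble defence proteins bind iron, make antimicrobial oxidants or carry antibodies into milk. Basal cells are contractile and surround the secretory cells, and they are not the known site of milk secretion.

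The libraries corresponded to 9368418 to 18454773 recovered reads in a3a6KO and 14480615 to 21548279 in Ctrl. The values are normalised read counts, scaled by the authors for the size of each library. The 8 basal markers were present in every library and summed to 841487 to 981196 in a3a6KO and 762134 to 1042907 in Ctrl. The 8 luminal markers summed to 18204 to 25482 in a3a6KO and 18696 to 33437 in Ctrl. Transcripts of 8 milk protein genes (the caseins, Wap, Lalba and Glycam1) summed to 127082, 217196 and 521479 in a3a6KO replicates 1 to 3 and to 249403, 178476, 899550 and 1216122 in Ctrl replicates 1 to 4. The 3 libraries a3a6KO replicate 3 and Ctrl replicates 3 and 4 thus stood above the other 4 in milk protein transcripts. Most of the luminal sum was Krt8 and Krt19. The mean log2 level of the same 8 markers was highest in the same 3 libraries, at 9.19, 9.42 and 9.88 in a3a6KO and 9.15, 8.61, 9.80 and 10.24 in Ctrl. Epcam, an epithelial adhesion molecule, had 983, 802 and 3532 in a3a6KO and 692, 747, 1586 and 2512 in Ctrl. Kit, of the same luminal list, did not follow that order, with 58.0, 63.3 and 33.8 in a3a6KO and 16.1, 6.46, 30.3 and 44.6 in Ctrl. The part of luminal cells in the member values was not tested. In such sorted populations more cells of a secretory type and more RNA per cell cannot be told apart.

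None of the 10 members differed between a3a6KO and Ctrl at an adjusted p under 0.05 in limma with Benjamini-Hochberg adjustment over 16889 genes, where 0% of all genes passed. At an unadjusted p under 0.05 the count was 0 of 10 in limma, against 6.32% of all genes. The counts were also 0 of 10 in edgeR, where 5.98% of all genes had such a p, and in DESeq2, where 6.57% did. After adjustment edgeR called 0% of all genes and DESeq2 0.583%, and no member among them. For all 10 members the values of the groups overlapped, whereas 7.51% of the genes tested had groups that did not. Of the members, 4 had a log2 fold change above 0 and 6 below, with a median of −0.59, against a median of −0.0040 over all genes tested. With 1 library left out the median of the members lay between −1.07 (without a3a6KO replicate 3) and −0.11 (without Ctrl replicate 4). What set the members apart from each other was how far they ranged across the 7 libraries, from 1.27-fold for Mfge8 to 17.3-fold for Pigr. In all 10 members the 3 highest values were those of a3a6KO replicate 3 and Ctrl replicates 3 and 4, the libraries with the most milk protein transcripts. For Mfge8 the margin was small, with 31303 in Ctrl replicate 4 against 30392 in a3a6KO replicate 2. The share of all genes with the same 3 highest libraries was not counted, so this order cannot be called particular to the members.

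**Figure D1:**
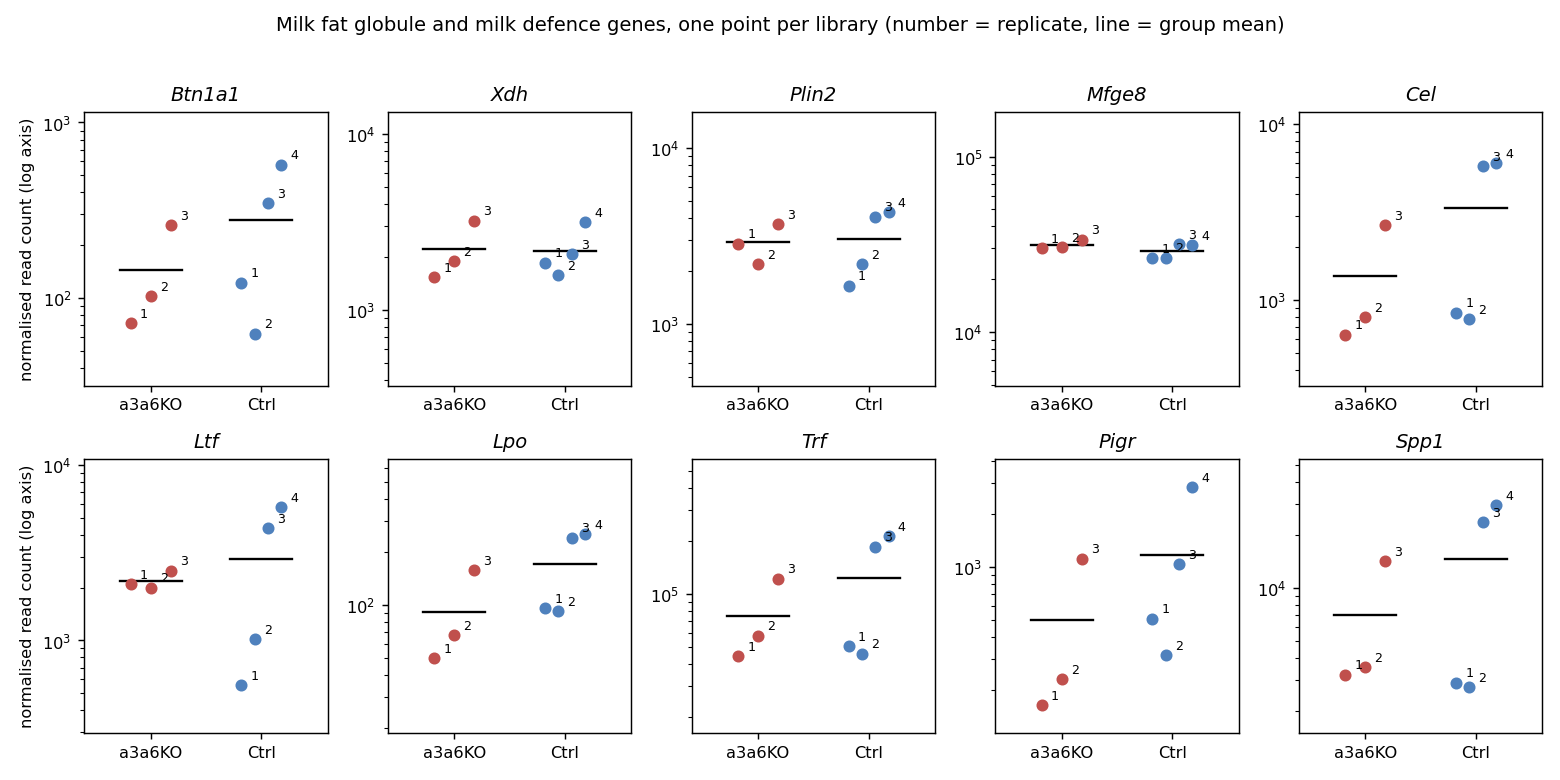
Normalised read counts (log axis, every panel spanning the same ratio) of the 10 members in 3 a3a6KO and 4 Ctrl libraries. Points are libraries with their replicate number and lines are group means; Mfge8 lies nearly flat, while in Spp1, Cel and Trf replicate 3 of a3a6KO and replicates 3 and 4 of Ctrl lie above the rest.

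The genes of the droplet coat and membrane contact come first. Btn1a1 (identifier GSMG0010419, chromosome 13, 23456999 to 23465902, mm10, minus strand) encodes butyrophilin, a membrane protein of the globule. It had normalised read counts of 72.1, 103 and 260 in a3a6KO replicates 1 to 3, against 123, 63.0, 346 and 576 in Ctrl replicates 1 to 4. The highest value was that of Ctrl replicate 4 and the lowest that of Ctrl replicate 2, so the controls alone spanned the range of both groups. The mean was 145 ± 101 (SD, n = 3) in a3a6KO and 277 ± 234 (SD, n = 4) in Ctrl. On the log2(value + 1) scale the fold change, mutant mean minus control mean, was −0.67 (SE 0.73, 95% interval −2.33 to 0.995), with a limma adjusted p of 0.891.

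Xdh (GSMG0017852, chromosome 17, 73883897 to 73950198, minus strand) encodes xanthine oxidoreductase, an enzyme of purine breakdown with a structural role in the globule membrane. It had 1532, 1889.5 and 3199 in a3a6KO, against 1851, 1576, 2071 and 3135 in Ctrl. A library of each group, a3a6KO replicate 3 and Ctrl replicate 4, stood at 3199 and 3135, and the other 5 lay between 1532 and 2071. Its log2 fold change was 0.0095 (SE 0.29, 95% interval −0.65 to 0.67, limma adjusted p = 0.997).

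Plin2 (GSMG0028017, chromosome 4, 86656565 to 86670059, minus strand) encodes perilipin 2, the coat of the cytoplasmic droplet, which many cell types make. It had 2867, 2188 and 3697 in a3a6KO, against 1649.8, 2189, 4087 and 4329 in Ctrl. The 3 mutant values lay inside the range of the controls. Adipocytes make perilipins too, and Plin1, their own perilipin, had 14.1, 0 and 37.4 in a3a6KO and 14.1, 0, 72.5 and 40.1 in Ctrl. The 6 adipocyte markers summed to 10490.2 to 22214 in a3a6KO and 6025 to 21006 in Ctrl, with Lep alone at 4398 to 18158 in a3a6KO and 2071 to 14894 in Ctrl. Adipoq, specific to adipocytes, had 256, 5.27 and 228 in a3a6KO and 91.4, 30.7, 782 and 343 in Ctrl. The part of adipocyte RNA in the Plin2 values was not tested. The mean was 2917 ± 756 (SD, n = 3) in a3a6KO and 3064 ± 1343 (SD, n = 4) in Ctrl, with a log2 fold change of 0.012 (SE 0.35, 95% interval −0.77 to 0.80).

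Mfge8 (GSMG0036150, chromosome 7, 79133769 to 79149060, minus strand) encodes lactadherin, a secreted glycoprotein that binds phosphatidylserine and, through an RGD motif, αv integrins. It had 30069.7, 30392 and 33568 in a3a6KO, against 26397, 26590.0, 31667 and 31303 in Ctrl. The mean was 31343 ± 1934 (SD, n = 3) and 28989 ± 2887 (SD, n = 4), and the log2 fold change 0.12 (SE 0.15, 95% interval −0.23 to 0.46, limma adjusted p = 0.904). Its interval was the narrowest of the 10 members. Of the 10051 genes with a mean of at least 100, 91.6% ranged further across the libraries than Mfge8, and the median gene ranged 1.63-fold.

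Cel (GSMG0022589, chromosome 2, 28555804 to 28563403, minus strand) encodes the bile-salt-stimulated lipase, which passes with milk into the gut of the young and digests milk fat there. It had 635, 798 and 2669 in a3a6KO, against 847, 779, 5780.3 and 6000.3 in Ctrl. The 4 libraries low in milk protein transcripts held 635 to 847 and the other 3 held 2669 to 6000.3, with no library between. The mean was 1367 ± 1130.3 (SD, n = 3) in a3a6KO and 3352 ± 2933 (SD, n = 4) in Ctrl, so each SD was close to its mean. Cel had a log2 fold change of −0.98 (SE 0.84, 95% interval −2.89 to 0.92, limma adjusted p = 0.870).

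Trf and Ltf bind iron. Trf (GSMG0041221, chromosome 9, 103204001 to 103230318, minus strand) encodes transferrin, which carries iron in plasma and which rodent mammary cells secrete into milk. It had 44228, 57842 and 121529 in a3a6KO, against 50260.7, 45615, 185195 and 212492 in Ctrl. The mean was 74533 ± 41265 (SD, n = 3) in a3a6KO and 123391 ± 87856 (SD, n = 4) in Ctrl, and the log2 fold change −0.52 (SE 0.62, 95% interval −1.92 to 0.87). Trf had the highest level of the members per length of transcript, in each of the 7 libraries.

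Ltf (GSMG0040156, chromosome 9, 111019290 to 111042766, plus strand) encodes lactoferrin, which withholds iron from bacteria and is also stored in neutrophil granules. It had 2083, 1994 and 2494 in a3a6KO, against 556, 1016, 4337 and 5742 in Ctrl. The mutants were close together, with a 1.25-fold range, and all 3 lay in the gap between the lower and the higher pair of controls, which ranged 10.3-fold. The mean was 2190.4 ± 267 (SD, n = 3) in a3a6KO and 2913 ± 2529 (SD, n = 4) in Ctrl. The log2 fold change was 0.17 (SE 0.73, 95% interval −1.48 to 1.82, limma adjusted p = 0.970), and it turned to −0.42 in edgeR. The 8 neutrophil markers summed to 6.63, 10.5 and 39.1 in a3a6KO and 5.02, 6.46, 22.0 and 53.0 in Ctrl. That sum was highest in a3a6KO replicate 3 and Ctrl replicates 3 and 4. Ly6g alone of these markers was at 0 in all 7 libraries. The part of neutrophil RNA in the Ltf values was not tested.

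Lpo (GSMG0007195, chromosome 11, 87806428 to 87826115, minus strand) encodes lactoperoxidase, which makes an antibacterial oxidant from thiocyanate. It had 49.7, 67.2 and 157 in a3a6KO, against 95.4, 92.1, 241 and 252 in Ctrl. Replicates 1 and 2 of a3a6KO were the lowest libraries, below each control, and replicate 3 lay between the control pairs. The mean was 91.2 ± 57.3 (SD, n = 3) in a3a6KO and 170.0 ± 88.2 (SD, n = 4) in Ctrl. The log2 fold change was −0.91 (SE 0.49, 95% interval −2.03 to 0.21), with a limma adjusted p of 0.796, the smallest among the members. Its unadjusted p was 0.101.

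Pigr (GSMG0000745, chromosome 1, 130826683 to 130852249, plus strand) encodes the polymeric immunoglobulin receptor, which carries IgA through the epithelium. It had 164, 229 and 1112 in a3a6KO, against 509, 314, 1036 and 2841 in Ctrl. Replicates 1 and 2 of a3a6KO were again below every control, whereas replicate 3 stood above 3 of the 4 controls. The mean was 502 ± 529 (SD, n = 3) in a3a6KO and 1175 ± 1151 (SD, n = 4) in Ctrl. Its log2 fold change, −1.25 (SE 0.82, 95% interval −3.10 to 0.60), was the farthest from 0 among the members in limma and did not pass (limma adjusted p = 0.826). In edgeR Cel was farther, at −1.31 against −1.25 for Pigr. Leaving out a3a6KO replicate 3 gave −2.09, leaving out a3a6KO replicate 1 gave −0.71, and leaving out Ctrl replicate 4 gave −0.66. Of genes with a mean of at least 100, 0.428% ranged further across the libraries than the 17.3-fold of Pigr.

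Spp1 (GSMG0029510, chromosome 5, 104435111 to 104441053, plus strand) encodes osteopontin, an acidic phosphoprotein abundant in milk that binds integrins through an RGD motif and is also made by macrophages. It had 3226, 3542 and 14248 in a3a6KO, against 2905, 2737, 23693 and 29654 in Ctrl. As for Cel, the 7 libraries fell into 4 low values, from 2737 to 3542, and 3 high values with none between. The log2 fold change was −0.66 (SE 0.94, 95% interval −2.79 to 1.47, limma adjusted p = 0.911). The 8 macrophage markers summed to 129, 166 and 505 in a3a6KO and to 120, 161, 398 and 324 in Ctrl, highest in the same 3 libraries, and their part in the Spp1 values was not tested. Cd68, a lysosomal protein of macrophages, had 206 in a3a6KO replicate 3 and 23.1 to 85.5 in the other libraries. Csf1r and Fcer1g of the same list were also highest in a3a6KO replicate 3. Ptprc, Adgre1, Tyrobp, Itgam and Mrc1 were highest in a Ctrl library instead, with Mrc1 at 3.56 in a3a6KO replicate 3 and 42.2 in Ctrl replicate 3.

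Levels can be compared between genes only per length, so recovered reads were also set against the exon length of each gene in GENCODE M21, as RPKM, reads per kilobase of exon scaled to the recovered reads of the library. Trf ranged from 871 to 3926 RPKM over the 7 libraries and Mfge8 from 387 to 452 RPKM, and these ranges did not overlap. Spp1 followed with 115 to 1104 RPKM, a range that enclosed that of Mfge8. Plin2, Ltf and Cel, at medians of 53.4, 40.3 and 27.7 RPKM, overlapped each other across libraries and cannot be ordered. Xdh had a median of 14.4 RPKM and Pigr of 8.70 RPKM, again with overlapping ranges. Lpo and Btn1a1 were the lowest, at medians of 2.09 and 2.05 RPKM.

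The members were then set beside the milk protein transcripts of the same library, whose sum ranged 9.57-fold. With the mean log2 level of the 8 milk protein genes as a covariate in limma, the slope, in log2 units of the member per log2 unit of milk protein, ran from close to 0 to above 1. Mfge8 had a slope of 0.100 (SE 0.062), Xdh of 0.36 (SE 0.079) and Plin2 of 0.41 (SE 0.11). Lpo had 0.67 (SE 0.096), Trf 0.86 (SE 0.086) and Ltf 0.87 (SE 0.21). Btn1a1 had 1.04 (SE 0.097), Pigr 1.12 (SE 0.14), Cel 1.20 (SE 0.10) and Spp1 1.33 (SE 0.12). The slopes describe 7 libraries and were not tested against each other. Leaving out 1 library moved the slope of Ltf furthest, which then lay between 0.67 and 1.09.

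**Figure D2:**
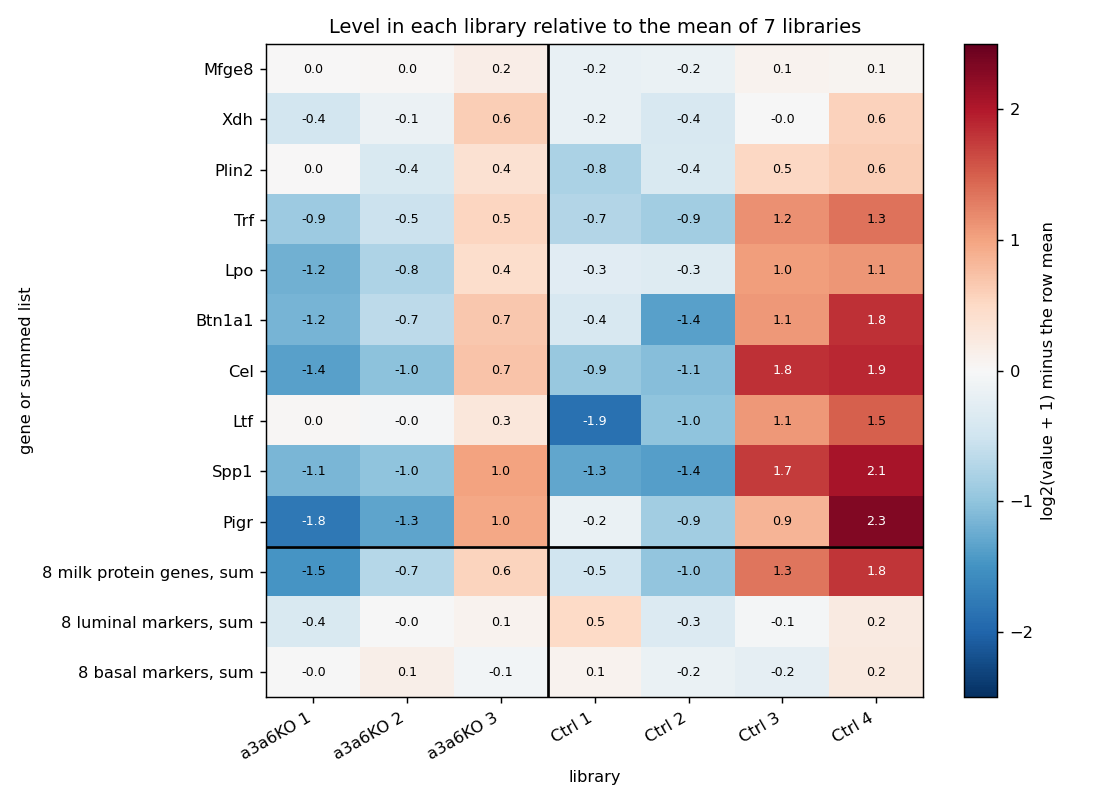
Level of each member and of 3 summed marker lists in each library, as log2(value + 1) minus the mean of the row over 7 libraries (red above the mean, blue below). The rows for Trf, Lpo, Btn1a1, Cel, Spp1 and Pigr follow the milk protein sum, and Mfge8 stays within about 0.2 of its mean. The luminal sum, most of it keratin transcripts, and the basal sum show no such order. Of the luminal list, Epcam, Elf5, Cldn3 and Cldn7 were highest in the 3 libraries richest in milk protein, and Krt8, Krt18, Krt19 and Kit were not.

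The same relation can be read as a ratio. Per 1000 normalised counts of the 8 milk proteins, Btn1a1 had 0.567, 0.474 and 0.498 in a3a6KO, against 0.491, 0.353, 0.385 and 0.474 in Ctrl, a 1.61-fold range where the counts themselves ranged 9.15-fold. Cel ranged 1.89-fold on this scale, Trf 1.99-fold, Pigr 2.21-fold, Spp1 2.35-fold and Lpo 2.49-fold. The denominator itself ranged 9.57-fold, which sets most of the range of this ratio for a gene with flat counts. For Mfge8 the ratio ranged further than the counts, 9.19-fold, with 237, 140 and 64.4 per 1000 in a3a6KO and 106, 149, 35.2 and 25.7 per 1000 in Ctrl. The same held for Plin2, at 6.34-fold against 2.62-fold for its counts, and for Xdh, at 5.24-fold against 2.09-fold. Ltf had 16.4, 9.18 and 4.78 per 1000 in a3a6KO and 2.23, 5.69, 4.82 and 4.72 per 1000 in Ctrl. Ctrl replicate 1 was the lowest library on this scale for Ltf. The library with the least milk protein, and so the smallest denominator, was a3a6KO replicate 1. It was the highest for 6 members, Btn1a1, Xdh, Plin2, Mfge8, Ltf and Trf.

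**Figure D3:**
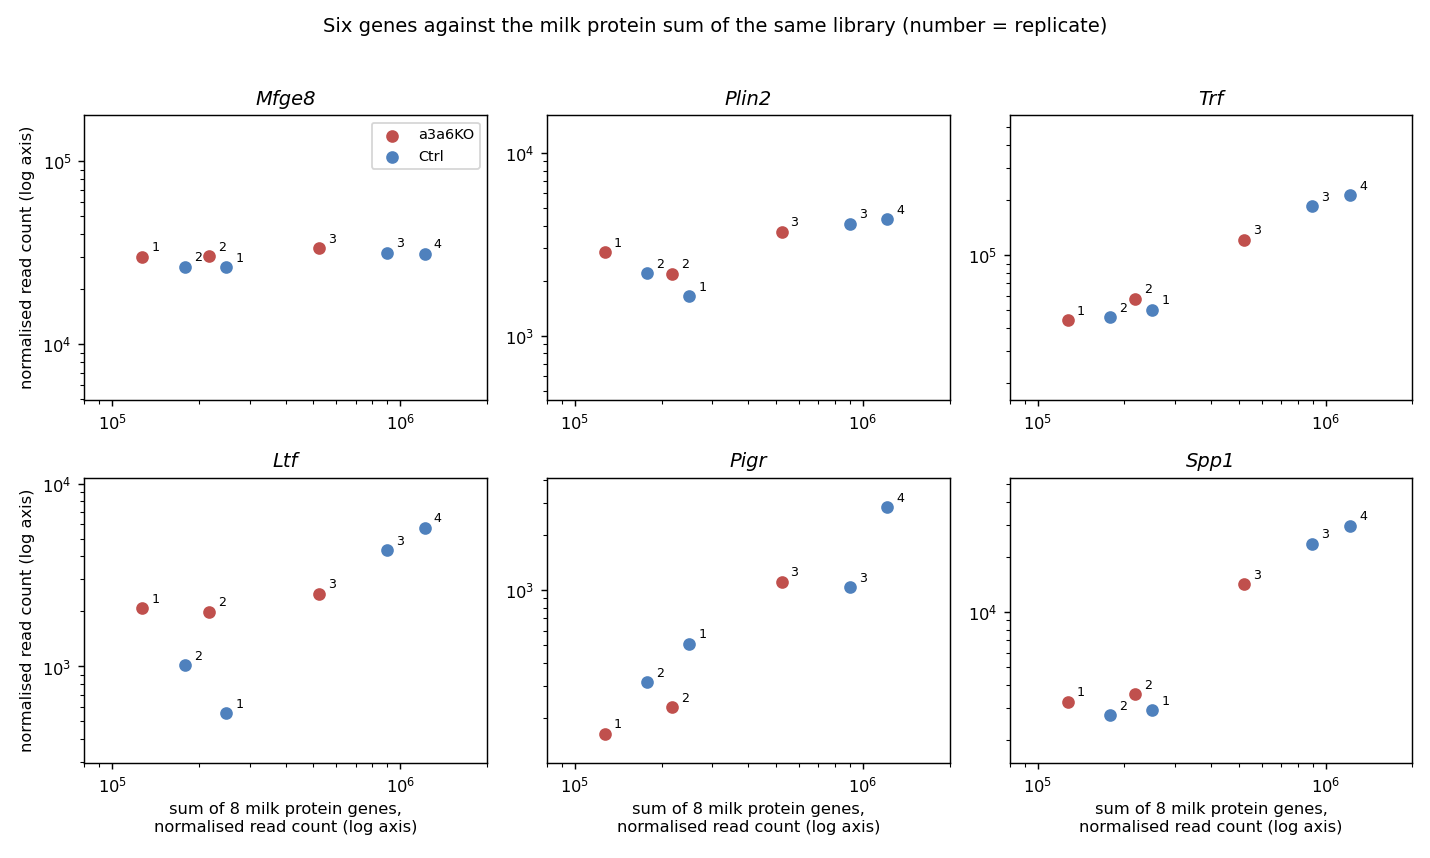
Normalised read counts of 6 members against the summed normalised read counts of 8 milk protein genes in the same library (both axes log, points numbered by replicate). Mfge8 is nearly level, Trf and Pigr climb with milk protein, and Ltf in a3a6KO replicates 1 and 2 (2083 and 1994) lies above Ctrl replicates 1 and 2 (556 and 1016) where the milk protein sums were 127082 and 217196 in a3a6KO and 249403 and 178476 in Ctrl.

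With this covariate the differences between a3a6KO and Ctrl again did not pass for any member in limma, where 0% of all genes were called and 12.7% had an unadjusted p under 0.05. A single member, Spp1, had such a p (0.0462), with a log2 difference of 0.64 (SE 0.27, 95% interval 0.014 to 1.27) and a limma adjusted p of 0.382. With 1 library left out its difference lay between 0.40 (without Ctrl replicate 1) and 0.85 (without a3a6KO replicate 2), and its unadjusted p was under 0.05 in 2 of 7 such fits. Ltf had 1.02 (SE 0.48, 95% interval −0.087 to 2.12, limma adjusted p = 0.424), and leaving out 1 library moved it to 0.42 (Ctrl replicate 1) at the low end and 1.74 (a3a6KO replicate 3) at the high end. In all, 8 of 10 members had a difference above 0 at equal milk protein, against 49.9% of all genes, while without the covariate 6 of 10 were below 0, against 50.5%. All 10 members had the same 3 highest libraries, so their signs are not separate results. Whether the covariate itself differs with genotype was not tested. The 4 members whose sign turned with the covariate were Btn1a1, Cel, Trf and Spp1.

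**Figure D4:**
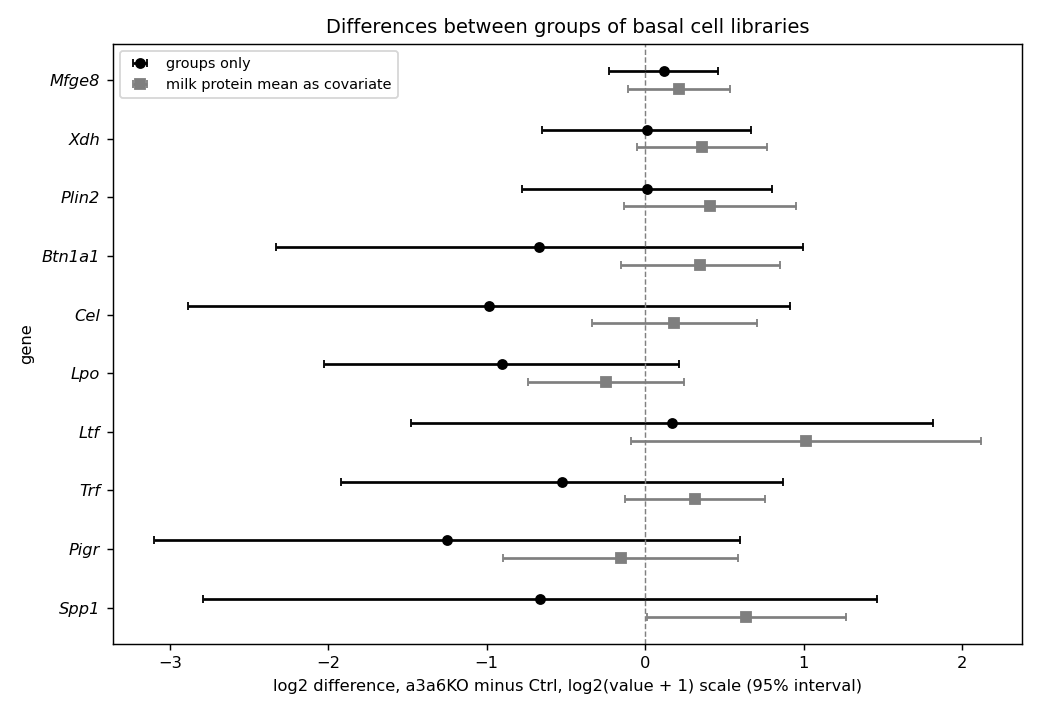
Log2 difference between a3a6KO and Ctrl (a3a6KO minus Ctrl) for each member with its 95% interval, from limma with groups only (black circles) and with the milk protein mean as covariate (grey squares). All black intervals cross 0, and among the grey ones that of Spp1 (0.014 to 1.27) does not, although its adjusted p was 0.382.

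Promoters are shown for the member that ranged least across the libraries, Mfge8, and for the 2 that ranged furthest, Pigr and Spp1. The sequences are from RefSeq on build GRCm38.p6, each 250 bases before to 50 after an annotated start, 5′ to 3′ on the strand of the gene. RefSeq promoters were matched by symbol for 7 of the 10 members. Capitals mark matches, on either strand, to the core-promoter motif TATAAA, the GC box motif GGGCGG or the paired half-site motif TTCNNNGAA of STAT5, the transcription factor that prolactin activates in secretory cells. The Mfge8 window is chr7:79149011-79149310 (minus strand), that of Pigr chr1:130826434-130826733 and that of Spp1 chr5:104434861-104435160 (both plus strand).
Mfge8: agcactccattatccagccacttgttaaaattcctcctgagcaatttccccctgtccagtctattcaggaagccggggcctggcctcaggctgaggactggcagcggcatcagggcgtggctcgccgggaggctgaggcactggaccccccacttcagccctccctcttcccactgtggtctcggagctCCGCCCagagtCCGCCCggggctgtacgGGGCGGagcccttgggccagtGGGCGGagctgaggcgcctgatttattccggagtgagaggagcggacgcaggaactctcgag
Pigr: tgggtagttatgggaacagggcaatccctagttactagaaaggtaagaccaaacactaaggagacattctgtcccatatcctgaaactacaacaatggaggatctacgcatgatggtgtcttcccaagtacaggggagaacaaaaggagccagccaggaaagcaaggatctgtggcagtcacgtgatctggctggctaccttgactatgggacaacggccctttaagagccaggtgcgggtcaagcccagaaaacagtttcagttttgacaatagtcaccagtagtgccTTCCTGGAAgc
Spp1: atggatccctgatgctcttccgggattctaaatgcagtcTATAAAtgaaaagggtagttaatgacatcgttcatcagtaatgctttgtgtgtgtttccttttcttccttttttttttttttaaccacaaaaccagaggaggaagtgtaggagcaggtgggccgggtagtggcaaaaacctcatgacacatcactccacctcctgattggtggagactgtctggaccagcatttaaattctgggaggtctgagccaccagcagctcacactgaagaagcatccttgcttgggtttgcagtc
The Mfge8 window held 4 GC boxes, with first bases at −61, −50, −33 and −12 from the start, and neither other motif. Pigr had a STAT5 match after its start, at position 40, and Spp1 a core-promoter match far upstream, at −211 from the start shown. RefSeq gave Spp1 another start as well. Its window, chr5:104435942-104436241, is not shown and held no match to any of the 3 motifs. Of 32851 promoters of this length, 35.7% held a GC box, 13.6% a core-promoter match and 8.30% a STAT5 match. Among the 7 members, 2 had a GC box, 1 a core-promoter match and 1 a STAT5 match. The 3 motifs were chosen with the values of the members known. A match is a run of letters and does not show binding.

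The genes most like each member were named by the smallest root mean square difference between centred log2 profiles over the 7 libraries, among 10400 genes. For Pigr they were the milk protein genes Csn1s1 (0.29 log2 units), Csn1s2a (0.40) and Glycam1 (0.41). The list for Btn1a1 held Igfals (0.16), the mucin Muc1 (0.17) and the casein Csn3 (0.20). For Lpo they were Nucb2 (0.22), Csn1s2b (0.23) and the growth factor Egf (0.26). Trf was closest to the oxidase Qsox1 (0.16), the folate receptor Folr1 (0.16) and the lipid droplet protein Cidea (0.19). Cel and Spp1 differed from each other by 0.24 and shared the neighbour Chrdl2 (0.17 for Cel and 0.18 for Spp1). The others were Ccdc64b (0.21) for Cel, and the gap junction gene Gjb2 (0.17) and the nucleoside transporter Slc28a3 (0.18) for Spp1.

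The remaining members were Plin2, Xdh, Mfge8 and Ltf. Plin2 was nearest to Fabp5 (0.093), a fatty acid binding protein, then to Serp1 (0.14) and Tacc3 (0.14). Xdh was nearest to Pak6 (0.12), Fam234b (0.14) and Sec14l1 (0.16). For Mfge8 the distances were small because its profile is flat, at 0.024 for Tubgcp4, 0.026 for Tspan31 and 0.036 for Impad1. Of the members, Ltf had the farthest nearest gene, the sodium channel subunit Scnn1b (0.39). Next to it came Fkbp11 (0.40) and the lysozyme gene Lyz2 (0.41), distances like those of Csn1s2a (0.40) and Glycam1 (0.41) from Pigr. Lyz2, which myeloid cells also make, had 291, 359 and 441 in a3a6KO and 120, 181, 624 and 479.6 in Ctrl.

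Of 16 other genes of the globule and its secretion, all 16 were measured and 0 were called in limma, edgeR or DESeq2, while 2 had an unadjusted p under 0.05 in each of the 3 tools, where 6.32%, 5.98% and 6.57% of all genes did in limma, edgeR and DESeq2. The list had 7 genes above 0 and 9 below, with a median log2 fold change of −0.15. That direction turned with milk protein as covariate (13 above and 3 below, median 0.23), and the median was 0.040 without Ctrl replicate 3 and 0.048 without Ctrl replicate 4. With the covariate 6 of the 16 had an unadjusted p under 0.05 in limma, against 12.7% of all genes, and 0 were called. Muc15, a membrane mucin of the globule, had 149, 219 and 361 in a3a6KO, against 359, 423, 836 and 995 in Ctrl, so that a3a6KO replicate 3 and Ctrl replicate 1 just overlapped. Its log2 fold change was −1.39 (SE 0.41, limma adjusted p = 0.603), with an adjusted p of 0.623 in edgeR and 0.0660 in DESeq2, and −0.84 (limma adjusted p = 0.160) with milk protein as covariate. Cd36, a fatty acid transporter, had the opposite sign, with 6467, 8581 and 11424 in a3a6KO, against 3030.4, 4156, 5734 and 7953 in Ctrl (0.81, SE 0.32, limma adjusted p = 0.739). With milk protein as covariate its log2 difference was 1.21 (limma adjusted p = 0.115). Cd36 is also made by endothelial cells, whose 6 markers summed to 5746 to 7684 in a3a6KO and 2449 to 4214 in Ctrl, and their part in its values was not tested. The other genes named for a small p were the vesicle protein Vamp2 (−0.34), the perilipin Plin3 (−0.28) and the annexin Anxa2 (0.24).

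Of 16 other genes put on a milk defence list, 14 passed the filter on low values, with 5 above 0, 9 below and a median log2 fold change of −0.39. Being on that list does not show a defence role for each gene, Nucb2 and Ctsd among them. With milk protein as covariate the median was 0.38 (9 above and 5 below), and without Ctrl replicate 4 it was 0.22 (8 above and 6 below). Muc4 was at 0 in all libraries and Ang was not matched by symbol. None was called in limma, edgeR or DESeq2, and 0 had an unadjusted p under 0.05 in limma and edgeR, against 1 in DESeq2. With milk protein as covariate 3 had such a p in limma, against 12.7% of all genes, and 0 were called. Ccl28, a chemokine that draws IgA-secreting plasma cells to the lactating gland, had 6.63, 13.2 and 48.0 in a3a6KO, against 26.1, 16.2, 148 and 175 in Ctrl (−1.76, SE 0.93, limma adjusted p = 0.789). Like the members, its 3 highest values were in a3a6KO replicate 3 and Ctrl replicates 3 and 4. The complement gene C3 had no such order, with 261, 314 and 139 in a3a6KO and 241, 373, 409 and 365 in Ctrl (−0.596, SE 0.30). Nucb2 (−0.66), the lipopolysaccharide binding protein Lbp (−0.74) and haptoglobin, Hp (−2.02, SE 1.64, and 0.078 without a3a6KO replicate 2), completed the 5 with the smallest p.

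The receptors, cargo and cofactor enzymes of the member proteins had 14 genes listed and 11 that passed the filter, of which 0 were called or had an unadjusted p under 0.05 in limma, edgeR or DESeq2. Of these, 3 were above 0 and 8 below, with a median log2 fold change of −0.10. Tfrc, the transferrin receptor, had 16.6, 19.8 and 71.2 in a3a6KO and 16.1, 16.2, 58.8 and 93.8 in Ctrl, highest in the same 3 libraries as Trf. Jchain, which joins the polymeric antibodies that Pigr carries, was at 27.5 and 18.2 in Ctrl replicates 3 and 4 and at 0 in the other 5 libraries. Mocs1, an enzyme of the molybdenum cofactor that Xdh requires, was the 1 gene of 11 whose groups did not overlap, against 7.51% of all genes, with 87.0, 111 and 89.0 in a3a6KO and 127, 120, 127 and 129 in Ctrl (−0.40, SE 0.18, limma adjusted p = 0.785). The others with a small p were the osteopontin receptor Cd44 (−0.33), the cofactor sulfurase Mocos (−0.20), the lactadherin-binding subunit gene Itgb5 (−0.30) and Mocs2 (0.11). Itgb5 had 6088, 3801 and 2089 in a3a6KO, and its sign turned without a3a6KO replicate 3 (0.11).

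**Figure D5:**
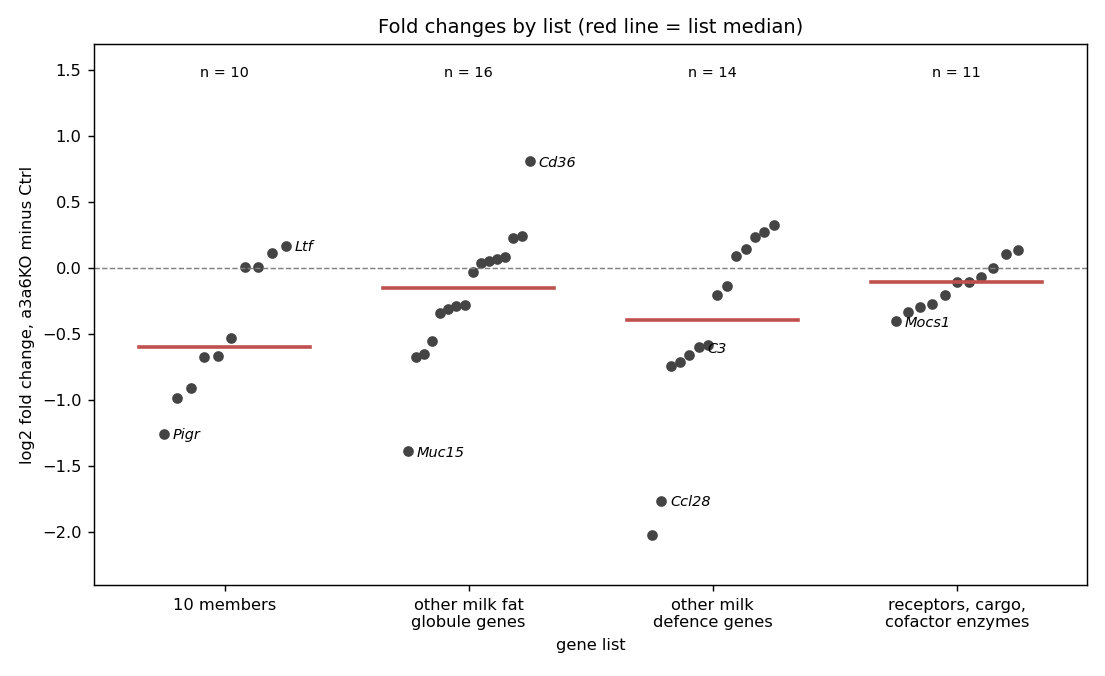
Log2 fold change (a3a6KO minus Ctrl) of the genes that passed the filter in 4 lists, each point a gene and each red line the median of the list. The medians were −0.59 for the 10 members, −0.15 for 16 other globule genes, −0.39 for 14 genes of the defence list and −0.10 for 11 receptors, cargo and cofactor genes.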

How the data were processed

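Libraries were made from total RNA with a SMARTer v4 protocol, per the labels. The authors scaled each library's gene counts by DESeq2 size factors (named in the file title and per the submitters' processing notes, which also list STAR 2.4.0 and build mm10), so a deposited signal value is a normalised count. The sources used here name neither the counting tool nor its strand setting, and reads of antisense or overlapping genes cannot be told apart. Deposited values carry no length correction. Dividing by the smallest step gave whole reads for 100% of values, to within 0.01 of a read. Among recovered counts from 1 to 20, 61.8% to 63.8% were even, which count models do not allow for.

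The filter kept 16889 genes that reached 10 in 3 or more libraries, and these were compared with limma 3.58.1 (R 4.3.3, empirical Bayes trend) on log2(value + 1). Tests were two-sided, p-values were adjusted by Benjamini-Hochberg, and 0.05 was the threshold. This scale understates changes of low genes. On recovered reads, edgeR 4.0.16 (quasi-likelihood) and DESeq2 1.42.0 were alternatives, and DESeq2 left genes without an adjusted p out of its calls. The limma script was tested on simulated counts, drawn for each gene on its own. They do not hold the order of libraries that the members share, so that test does not cover it. Replicate numbers only name libraries. The submitters call the libraries biological replicates without naming animals. The p-values set a difference between groups against the spread between these libraries.

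The members and lists were chosen with earlier results of these data known. All members are named, with up to 5 genes of each other list by smallest unadjusted p, and 3 genes most like each member among those with a mean of at least 50, leaving out predicted genes. Muc1, Lyz2, Folr1 and Cidea are named as such neighbours. Tfrc, Jchain, Muc4, Ang, Epcam, Elf5, Cldn3, Cldn7, Krt8, Krt18, Krt19, Kit, Plin1, Lep, Adipoq, Ly6g, Xbp1, Sdc1, Mzb1 and Cd68 were chosen after their values were seen. The same holds for the other macrophage markers named beside Cd68. Fibroblast markers summed to 20698 to 31205 in a3a6KO and 16435 to 27157 in Ctrl. The 4 plasma cell markers matched were mostly Xbp1 and Sdc1, which epithelial cells also make, and Mzb1 did not exceed 0.83 in a3a6KO and 4.54 in Ctrl. Other pseudocounts, filters, scalings, library weights, covariates and leaving out each library were tried, and the milk protein covariate with each library left out was added after the data were seen.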

Additional observations from a re-analysis of the deposited data

How the results depend on the processing

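The counts of called genes, 0 for the members and for each of the 3 other lists, were 0 under all 18 other settings tried, where the smallest adjusted p of a member was 0.382 (Spp1, milk protein mean as covariate). With that covariate and 1 library left out, chosen after seeing the data, it was 0.218 (Spp1, without a3a6KO replicate 2). At an unadjusted p under 0.05 limma counted 2 of 10 members without a3a6KO replicate 3 and 1 of 10 with library weights. The share of all genes was not counted in those fits, so these counts have no background to be read against. Signs did turn. With the milk protein mean as covariate the log2 difference was 0.35 for Btn1a1, 0.18 for Cel, 0.31 for Trf and 0.64 for Spp1. Under quantile normalization it was −0.050 for Xdh and −0.049 for Plin2, and with library weights −0.14 for Xdh and 0.049 for Itgb5. On recovered reads Plin2 had −0.079 in edgeR and −0.074 in DESeq2, and Ltf −0.42 and −0.41. With the luminal keratin mean as covariate Plin2 had −0.083 and Ltf −0.024. The causes were not tested.

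Leaving out 1 library gave −0.29 to 0.24 for Xdh, −0.25 to 0.22 for Plin2, −0.43 to 0.69 for Ltf, −3.45 to 0.078 for Hp and −0.67 to 0.11 for Itgb5, across 0 in each case. The same gave −1.21 to −0.16 for Btn1a1, −1.62 to −0.499 for Cel, −0.95 to −0.15 for Trf, −1.35 to −0.070 for Spp1, −1.38 to −0.56 for Lpo, −2.09 to −0.66 for Pigr and 0.066 to 0.16 for Mfge8. At equal milk protein, leaving out 1 library gave −0.0012 to 0.33 for Cel, −0.59 to 0.059 for Pigr and 0.40 to 0.85 for Spp1. No paired analysis was possible because the labels give no batch or pairing. With 3 and 4 libraries and within-group ranges of up to 10.8-fold among Ctrl, intervals spanning more than 3 log2 units for Btn1a1, Cel, Ltf, Pigr and Spp1 limit what the comparison can show.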
